A study of Caenorhabditis elegans with 4 samples.

Results

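Heat shock, J-domain and prefoldin genes of Caenorhabditis elegans were examined for binding of LIN-15B near their transcript starts. The members are the protein-coding genes of the annotation whose names begin with hsp-, dnj- or pfd-, plus sti-1 and hsf-1, which gave 59 of 19985 protein-coding genes. They comprised 22 hsp- genes, 29 dnj- genes, 6 pfd- genes, sti-1 and hsf-1. A member was counted as having a peak where the summit lay from 500 bp upstream to 100 bp downstream of one of its transcript starts, a region called the promoter window here. The cytosolic chaperonin genes named cct- were left out by that rule.

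The peaks came from chromatin immunoprecipitation followed by sequencing of whole L4 larvae, males and females pooled, of strain OP184, whose genotype is unc-119(tm4063) III with the integrated transgene wgIs184. The transgene supplied LIN-15B fused to green fluorescent protein, and for replicate 3 the labels add that the tag is a C-terminal GFP-FLAG. All 4 samples belong to 1 group with 3 biological replicates, of which replicate 3 has 2 technical libraries in 1 list, and no other treatment, genotype or stage was sampled. The whole animal was used, so a peak pools every tissue, and larvae under heat or other stress were not among the samples. Read counts are not given, and the depth behind a peak is therefore unknown.

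Molecular chaperones bind unfolded proteins, and many release them in cycles of ATP hydrolysis. HSP70 proteins are loaded by J-domain proteins, called dnj in the worm, and are emptied by nucleotide exchange factors such as HSP110. HSP90 receives clients from HSP70 through the adaptor STI-1, and prefoldin hands new actin and tubulin chains to the cytosolic chaperonin. Many of these genes are transcribed in every cell. Some are induced when heat activates the transcription factor HSF-1, which binds heat shock elements. Others are induced when unfolded protein accumulates in the endoplasmic reticulum or the mitochondria. LIN-15B belongs to the synMuv B proteins, carries a THAP domain, and is known for keeping germline genes repressed in somatic cells.

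An optimal LIN-15B peak, one that passed the authors' reproducibility threshold, lay in the promoter window of 7 of the 59 members, or 11.9% (95% Wilson interval 5.87 to 22.5). Among all protein-coding genes the share was 1.98%. These 7 were hsp-90, hsp-110, hsp-3, sti-1, dnj-9, dnj-14 and dnj-22. All 7 came from the 39 members put in the constitutive class, and none of the 12 stress-induced members had an optimal peak.

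The 121 bases around the summits of these 7 peaks carry the pattern described below, and are printed first. They were read from the RefSeq WBcel235 genome, which has the coordinates of ce11, 5′ to 3′ on the strand of the member gene. Capitals mark heat shock elements and CGCG. A heat shock element is a run of short units in alternating direction, written here for a pair of units as TTCNNGAA or GAANNTTC. The 3-unit form adds one more inverted unit to either pair.
hsp-90, chrV:14685689-14685809, + strand: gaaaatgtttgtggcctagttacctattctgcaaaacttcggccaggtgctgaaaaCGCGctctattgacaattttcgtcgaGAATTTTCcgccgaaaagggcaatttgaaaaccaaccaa
hsp-110, chrIII:8447108-8447228, − strand: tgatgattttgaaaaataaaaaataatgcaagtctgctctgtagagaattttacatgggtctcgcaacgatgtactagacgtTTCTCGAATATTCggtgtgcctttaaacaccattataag
hsp-3, chrX:6092116-6092236, − strand: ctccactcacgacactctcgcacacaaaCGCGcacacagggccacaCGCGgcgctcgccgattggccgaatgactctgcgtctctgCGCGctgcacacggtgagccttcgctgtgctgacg
sti-1, chrV:773396-773516, + strand: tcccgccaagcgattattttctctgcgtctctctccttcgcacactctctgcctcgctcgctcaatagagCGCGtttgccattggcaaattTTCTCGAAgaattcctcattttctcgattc
dnj-9, chrII:4851747-4851867, + strand: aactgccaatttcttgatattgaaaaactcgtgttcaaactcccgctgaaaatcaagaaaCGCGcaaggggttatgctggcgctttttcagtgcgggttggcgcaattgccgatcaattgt
dnj-14, chrX:4712078-4712198, − strand: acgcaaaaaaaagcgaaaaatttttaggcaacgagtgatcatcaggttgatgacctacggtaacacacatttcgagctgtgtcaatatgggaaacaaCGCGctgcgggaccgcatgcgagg
dnj-22, chrV:8462215-8462335, − strand: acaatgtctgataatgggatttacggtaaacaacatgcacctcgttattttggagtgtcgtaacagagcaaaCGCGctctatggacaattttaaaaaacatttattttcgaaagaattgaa

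CGCG stood in 6 of these 7 peaks, once in most and 3 times at hsp-3, when the summit and 100 bases on each side of it were searched. The peak of hsp-110 held none and had the 3-unit heat shock element instead. Pairs of units were also found at hsp-90 and sti-1, whereas the 4 remaining peaks had neither pair. The G+C content of the same stretches ranged from 30.8% at dnj-22 to 62.7% at hsp-3, with a median of 39.8%. Optimal promoter peaks in general, 276 in all, had a median of 41.3%, and CGCG in 71.0% of them. TTCNNGAA was in 11.2% of them and GAANNTTC in 15.9%. The hsp-3 peak was richer in G+C than 274 of these 276, and the dnj-22 peak richer than 9.

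A longer string recurred between members, which was looked for after the sequences had been seen. The peaks of hsp-90, sti-1 and dnj-22, all on chromosome V, share the 13 bases aaacgcgctctat on one strand or the other, as a search of all pairs of the 7 peaks found. Between hsp-90 and sti-1 the shared run is 16 bases long, and between dnj-22 and sti-1 it is 15. The 13-base string occurs 71 times in the genome. Apart from the 3 members it was taken from, it lies in 2 of 273 optimal promoter stretches of 100 bases on each side of a summit, or 0.733%, and in 6 of 1935 other pooled ones, or 0.310%. The counts are small, and no factor is assigned to the letters.

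The cytosolic HSP90 machine held the highest-scoring peak of the members. The gene hsp-90 encodes the worm's cytosolic HSP90, and its peak scored 30.6 in replicate 1, 32.2 in replicate 2 and 61.2 in replicate 3, in units of the authors' signal value. Its rank by score was 39, 43 and 20 of the 30000 peaks in those lists, so it stood near the top in every replicate. In the pooled list it scored 121 and ranked 24. The pooled peak spans chrV:14685697-14685823 on ce11. Its summit lies 411 bp upstream of one annotated start of hsp-90 and 831 bp downstream of the other, in an intron of the longer transcript. The start of C47E8.4, which encodes a FAM50 homolog on the other strand, is closer, at 264 bp.

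STI-1 is the adaptor that bridges HSP70 and HSP90. The sti-1 peak scored 14.9, 16 and 13.7 in replicates 1, 2 and 3, and ranked 142, 190 and 301. The values are alike, and all 3 ranks are within the 383 highest, the number of optimal peaks in the authors' list. In the pooled list it scored 43.2 at rank 190, with its summit 62 bp upstream of the sti-1 start, and no other protein-coding gene shares it.

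The HSP70 system contributed hsp-110 and hsp-3. HSP-110 belongs to the HSP110 family, which exchanges the nucleotide of HSP70. Its peak scored 17.7, 25.8 and 18.8 in the 3 replicates and ranked 106, 76 and 169. All 3 replicates therefore placed it in the top-ranked range, as they did hsp-90 and sti-1. The pooled peak scored 59.2 at rank 106, 259 bp upstream of hsp-110. The start of rpn-3, a regulatory subunit of the 26S proteasome, was closer to the summit, at 185 bp.

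HSP-3 is an HSP70 of the endoplasmic reticulum, a homolog of mammalian BiP. Its peak scored 3.47 in replicate 1, 24.4 in replicate 2 and 17.5 in replicate 3, with ranks of 17221, 82 and 191. Replicate 1 was far below the other replicates here. The pooled peak scored 44.4 at rank 182, with its summit 52 bp upstream of the most upstream hsp-3 start. Another pooled peak, at rank 1469, lies in an hsp-3 intron.

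Of the 29 J-domain genes, 3 had an optimal peak. DNJ-14 is the worm ortholog of cysteine string protein, a J protein of synaptic vesicles. The dnj-14 peak scored 14.7 in replicate 1, 4.24 in replicate 2 and 11 in replicate 3, at ranks 148, 24815 and 566. The dnj-9 peak scored 6.54, 22.8 and 12.0, at ranks 2649, 96 and 436. At dnj-22 the scores were 4.21, 16 and 6.78, at ranks 11230, 204 and 2526. Each of these 3 peaks was thus within the 383 highest of 1 replicate alone, replicate 1 for dnj-14 and replicate 2 for the others. In the pooled list they scored 42.5 for dnj-9, 31.9 for dnj-14 and 29.5 for dnj-22, the last close to the lowest score of any optimal peak, 28.9.

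**Figure D1:**
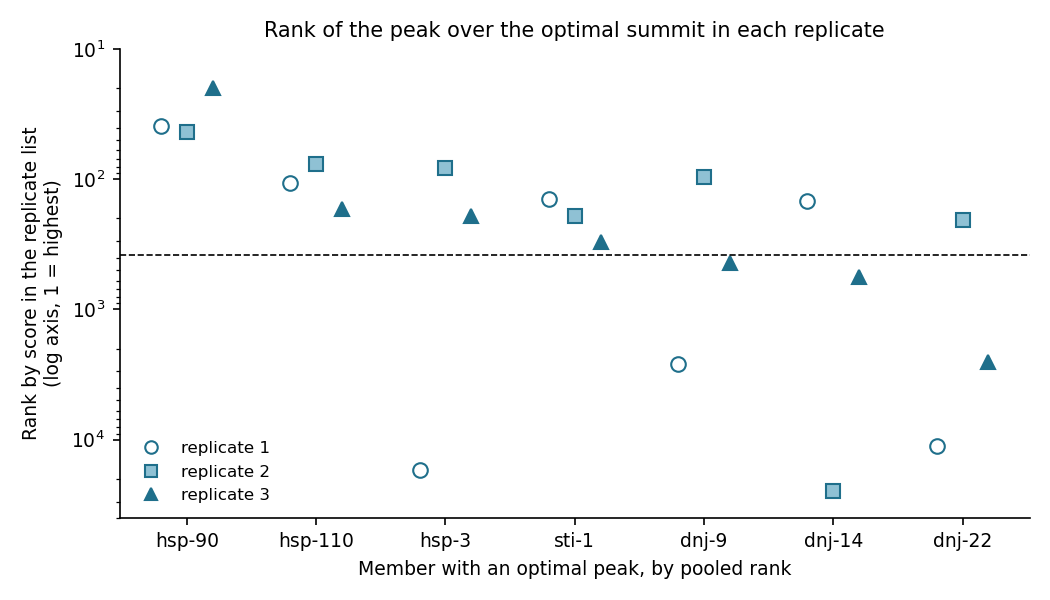
Rank by score (vertical log axis, 1 is the highest) of the peak over the optimal summit in each replicate list, for the 7 members with an optimal peak, in order of pooled rank. The dashed line is rank 383; all 3 replicates of hsp-90, hsp-110 and sti-1 lie above it, against 2 replicates of hsp-3 and 1 each of dnj-9, dnj-14 and dnj-22.

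Divergent neighbours shared 4 of the 7 peaks, and in each of these the neighbour's start was the closer one. Beside C47E8.4 and rpn-3 these were glit-1, which encodes a neuroligin-like protein, 141 bp from the summit against 390 bp for dnj-14, and natc-1, a homolog of MAK10, 84 bp against 155 bp for dnj-22. Sharing by more than 1 gene was found for 57.1% of the members' peaks and for 40.6% of the 276 optimal promoter peaks. Peaks of hsp-3, sti-1 and dnj-9 had no such neighbour, with dnj-9 starting 249 bp from its summit. Counting each summit for the nearest start alone left these 3 of 59 members. Which gene of a shared promoter a peak belongs to cannot be told from these lists.

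**Figure D2:**
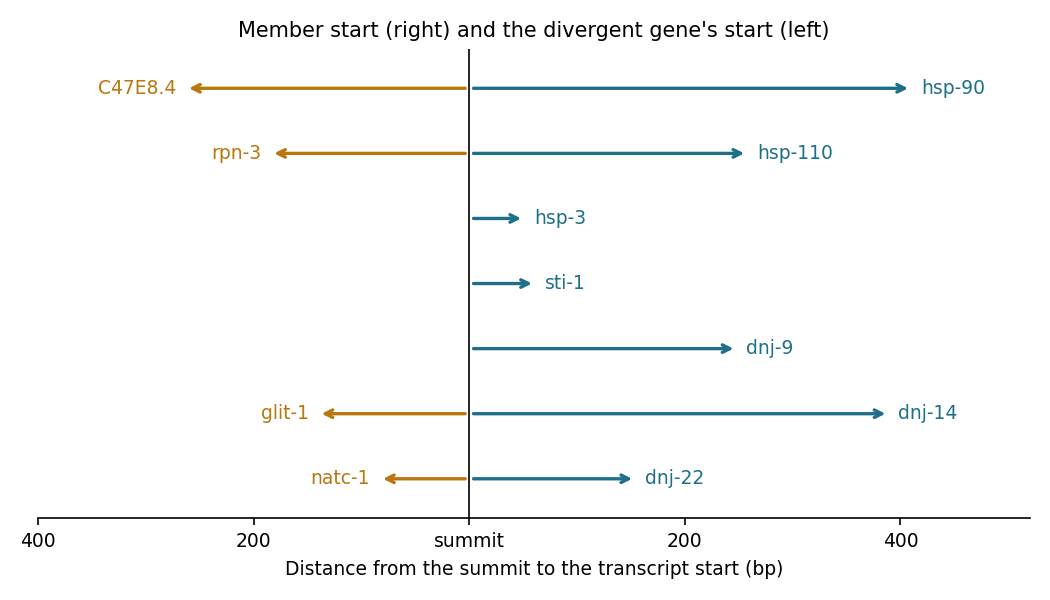
Distance in bp from each optimal summit (vertical line) to the start of the member (right, blue) and to the start of a divergent gene whose window holds the same summit (left, orange). The 4 neighbours lie 84 to 264 bp away and the corresponding members 155 to 411 bp away.

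Lower in the pooled list, which holds 8636 peaks and reaches into background, 23 of the 59 members had a peak in the window, or 39.0%, against 12.5% of all protein-coding genes. Those nearest below the optimal threshold were pfd-4 with a score of 26.3, dnj-29 with 26.0, dnj-28 with 25.8, dnj-12 with 25.2 and dnj-13 with 23.8. Prefoldin subunits were not among the optimal peaks, 0 of 6, which at 1.98% of all protein-coding genes is no result about them. A pooled peak was found at 4 of the 6, namely pfd-4, pfd-1, pfd-5 and pfd-6. The pfd-4 summit was closer to B0035.3 (59 bp) and B0035.22 (96 bp) than to pfd-4 (150 bp). The pfd-1 summit was closer to F01G4.6, at 283 bp against 326 bp. The pfd-4 peak scored 3.70, 9.06 and 6.60 in replicates 1, 2 and 3. No replicate placed it among its 383 highest. The dnj-12 window had a peak of 14.6, 16 and 12.2 in the 3 replicates, although replicate 1 placed it at another summit than the other replicates, and ranks of 151, 202 and 419. The dnj-28 window reached 11.1, 6.13 and 11. The dnj-29 window had no peak in replicate 1 and reached 12.9 in replicate 2 and 8.81 in replicate 3. The highest pooled summits of dnj-28 and dnj-29 are shared with supr-1 and ndua-2, but lie closer to the members, at 90 and 212 bp. The dnj-13 window reached 6.25, 6.36 and 8.61. In replicate 3 dnj-12 thus ranked above dnj-9, dnj-14 and dnj-22, whose pooled peaks were optimal.

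The constitutive HSP70 of the cytosol, hsp-1, had a pooled peak of 19.5 at rank 1023. It had no peak in replicate 1 and scored 7.43 in replicate 2 and 9.13 in replicate 3. Further constitutive members with a pooled peak in the window were dnj-15 with a score of 20, dnj-11 with 19.3 and dnj-19 with 19.1. The dnj-19 summit was 46 bp from nhr-47, against 350 bp from dnj-19. The dnj-11 summit was shared with F38A5.2, which is farther, at 259 bp against 212 bp. The mitochondrial HSP90 homolog hsp-75 had none.

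**Figure D3:**
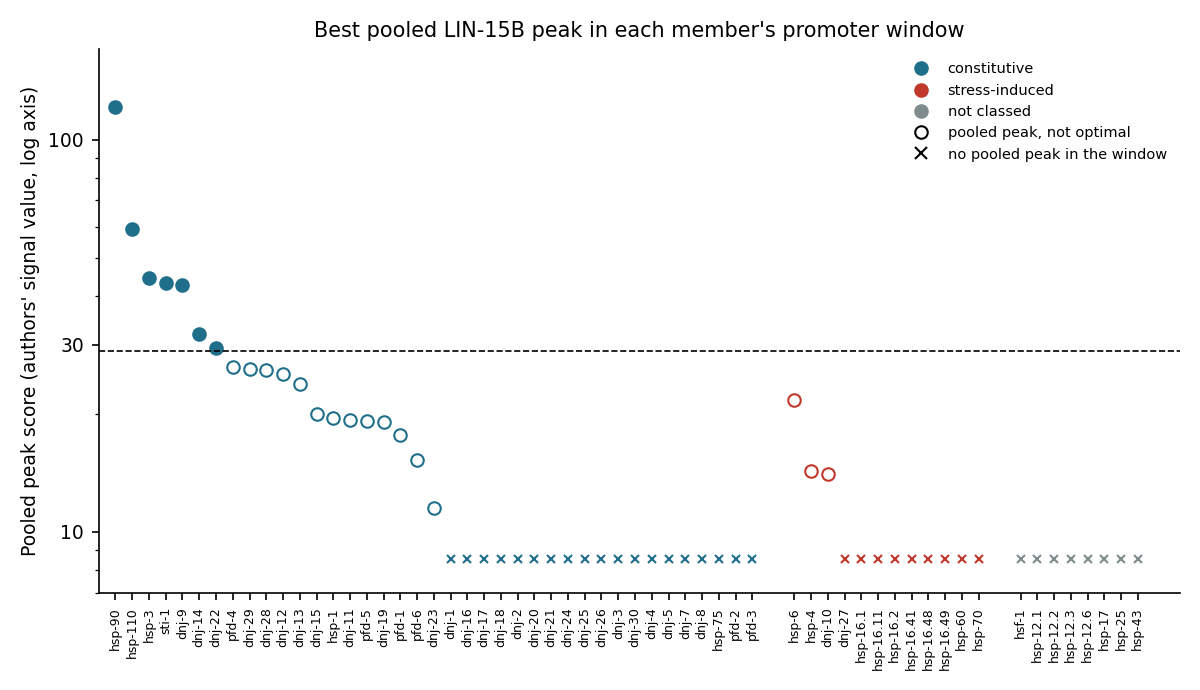
Score (authors' signal value, log axis) of the highest pooled peak in the promoter window of each of the 59 members, grouped as constitutive, stress-induced or not classed. Filled points are optimal peaks, open points other pooled peaks, crosses members with no pooled peak in the window, and the dashed line is the lowest optimal score, 28.9; the 7 filled points are all constitutive members, from 29.5 to 121.

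Stress-induced members as a class had a peak less often than constitutive ones in each list used. The heat-induced and organelle genes within the class are also counted apart, though both groups are small. The class holds 7 genes induced by heat through HSF-1 and 5 induced by unfolded protein in an organelle, and it was assigned from background knowledge, since no expression was measured here. The constitutive class holds hsp-1, hsp-3, hsp-75, hsp-90, hsp-110, sti-1, the prefoldin genes and every J-domain gene other than dnj-10 and dnj-27. J-domain genes make up 27 of its 39 members, and many of these have no well-known expression class and were placed there by that rule. Membership of the constitutive class does not exclude induction by stress, which was not measured. Of the 39, 6 hold the 3-unit heat shock element in the promoter, hsp-90, hsp-110 and sti-1 among them. The 6 hsp-16 genes lie in divergent pairs that share promoters, so they are not independent of each other. Optimal peaks were at 17.9% of the 39 constitutive members (95% Wilson interval 8.98 to 32.7) and at 0 of 12 stress-induced members, for which the interval runs up to 24.2%. The intervals overlap, so the optimal list alone does not separate the classes beyond counting error. The share of all protein-coding genes was 1.98%, at which 0 of 12 is no result about the class. In the pooled list the shares were 51.3% (20 of 39) and 25% (3 of 12), both above the 12.5% of all protein-coding genes. The pooled peaks of the stress-induced class were all at organelle genes, 3 of 5 or 60% (95% Wilson interval 23.1 to 88.2). Heat-induced genes had 0 of 7, with an interval up to 35.4%. These intervals overlap, and 4 of the 7 windows hold repeated sequence, so the pooled list does not separate the groups. The 8 members that were put in neither class had no pooled peak, which at 12.5% of all protein-coding genes is no result about them.

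Each replicate list repeated the order of the classes. Any peak in the window was found for 56.4%, 66.7% and 71.8% of the constitutive members in replicates 1, 2 and 3, against 25%, 16.7% and 33.3% of the stress-induced ones. The constitutive share was thus higher by 31.4, 50 and 38.5 percentage points. Organelle genes alone stood at 60%, 40% and 40%, above the constitutive share in replicate 1 and below it in the others, and heat-induced genes at 0%, 0% and 28.6%. Means over the 3 lists were 65.0% ± 7.83 (SD, n = 3) and 25% ± 8.33, so the values of the classes did not overlap between replicates. Over all protein-coding genes the share was 26.2%, 26.9% and 26.7%. The stress-induced class lay around these values with all 12 members, and at 37.5%, 25% and 50% without 4 members whose windows hold repeated sequence, described below. No test was made of these differences, since members and classes were chosen with earlier results of these data known.

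When only the 383 highest-scoring peaks of each replicate were taken, 11.9%, 13.6% and 6.78% of all 59 members had one, a mean of 10.7% ± 3.53 (SD, n = 3). Over all protein-coding genes this was 1.69%, 1.73% and 1.69%. Constitutive members reached 17.9%, 17.9% and 10.3%. Among stress-induced members 1 had such a peak in replicate 2, namely hsp-6, and none did in replicates 1 and 3. With peaks of any rank counted, 6 of the 39 constitutive members and 5 of the 12 stress-induced ones had no peak in any replicate list. Those 5 include hsp-16.1, hsp-16.11, hsp-16.48 and hsp-16.49, whose windows hold repeated sequence. A peak in all 3 lists was found for 16 constitutive members and for no stress-induced member. The same counts were not made over all protein-coding genes, so how usual they are is unknown.

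**Figure D4:**
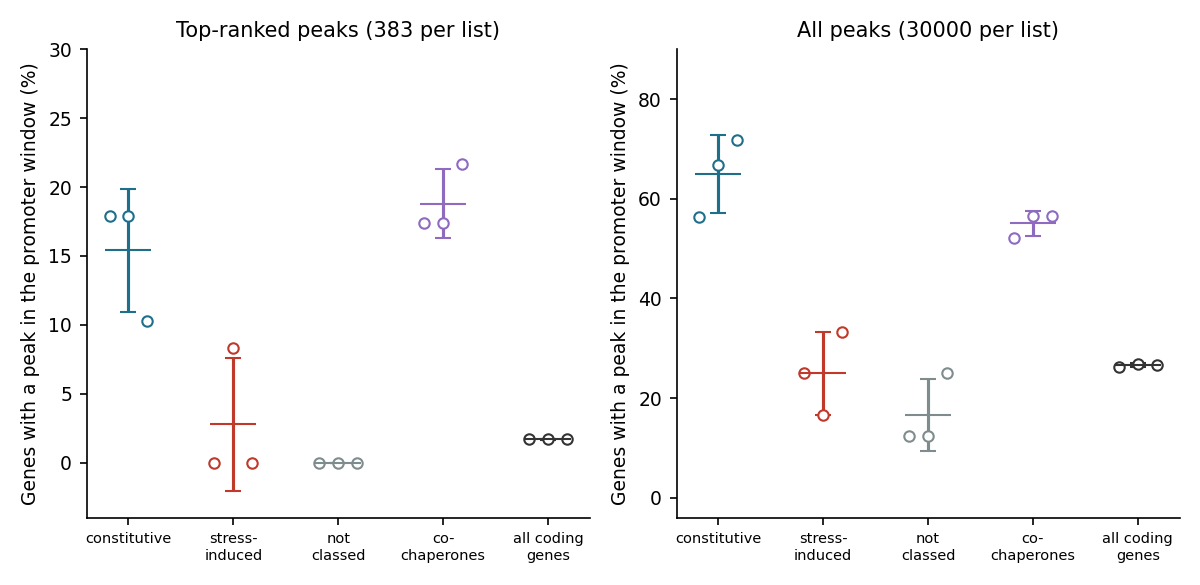
Percent of genes with a peak in the promoter window in each replicate list (points, replicates 1 to 3 from left to right), with the mean (long bar) and SD (error bar), for the 383 highest peaks (left) and all 30000 peaks (right). Constitutive members lie at 56.4% to 71.8% in the right panel and stress-induced members at 16.7% to 33.3%.

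Heat-induced members had a peak in replicate 3 alone, though 7 genes are few to set against a share of 12.5% for pooled peaks over all genes. None of the 7, which are the 6 hsp-16 genes for small heat shock proteins and the inducible HSP70 gene hsp-70, had a pooled peak in the window. In the replicate lists the exception was 1 peak of score 3.15 in replicate 3, at rank 18141, in the promoter that hsp-16.2 and hsp-16.41 share. It counts for 2 of the 7 genes, or 28.6%, against 26.7% of all protein-coding genes in that list. For hsp-70 the nearest pooled summit was 2229 bp away. The gene of the heat shock factor itself, hsf-1, had no peak in its windows in any list, with the nearest pooled summit 1570 bp from a start.

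The copies of the hsp-16 genes limit what the lists can show. In the windows of hsp-16.1, hsp-16.11, hsp-16.48 and hsp-16.49, 0% of the 31-base words occur once in the genome, and the promoter windows at hsp-16.48 and hsp-16.49 are identical base for base. Reads from such copies cannot be placed by sequence, and how the authors treated them is not given in the sources used here. The 3 remaining heat-induced windows, those of hsp-16.2, hsp-16.41 and hsp-70, hold 95.4%, 96.3% and 100% of words that occur once, although the hsp-16.2 and hsp-16.41 windows cover 1 shared promoter. Those of all 7 members with an optimal peak hold 100%. Leaving out the 4 repeated windows, a step chosen after seeing the data, 0 of 8 stress-induced members had an optimal peak and 3 of 8 a pooled one. The replicate lists then gave 3, 2 and 4 of 8.

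Stress genes of the organelles had pooled peaks of low score. The hsp-6 gene, for mitochondrial HSP70, had one of 21.7 at rank 742, with its summit 380 bp upstream and only 220 bp from C37H5.5, which encodes a nucleolar complex protein. Replicate 2 alone had an hsp-6 peak in the window, 13.5 at rank 345. The BiP homolog hsp-4, which the unfolded protein response of the endoplasmic reticulum induces, had a pooled peak of 14.3 at rank 3349, against 44.4 at rank 182 for its constitutive relative hsp-3. In the hsp-4 window replicate 1 gave 5.34 and the other replicates no summit. The mitochondrial J-domain gene dnj-10 had a pooled peak of 14.0, with 7.29 in replicate 1, none in replicate 2 and 11 in replicate 3. The ER-resident J-domain gene dnj-27 had none in the pooled list and 3.92 in replicate 2 alone.

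For hsp-60, the mitochondrial chaperonin, the count depends on the window. An optimal peak lies at chrIII:1619099-1619228, with a score of 122 and rank 23, and its summit is 609 bp upstream of hsp-60, just outside the window. The same summit is 204 bp from the start of Y22D7AL.10, annotated as the mitochondrial 10 kDa heat shock protein, which is the partner of HSP-60 in the folding chamber and is no member by name. Inside the window, replicate 1 had an hsp-60 peak of 9.01 at rank 698, replicate 2 had none, and replicate 3 had one of 3.57 at rank 14418. A window of 1000 bp upstream and 200 bp downstream counts this peak for hsp-60, which is then the 1 stress-induced member with an optimal peak.

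Promoter sequence at 2 stress-induced loci is given for comparison, again with heat shock elements in capitals, and for hsp-4 also the core of the element that answers stress of the endoplasmic reticulum, TGACGTG, read on either strand. A pair of units alone is common, with TTCNNGAA in 34.6% and GAANNTTC in 34.3% of all protein-coding promoters. The hsp-16.2 and hsp-16.41 sequence is everything between their starts, on the + strand, and the hsp-4 sequence is the 250 bases before its upstream start, on the − strand. CGCG is left in small letters here, unlike in the peaks above. The hsp-4 sequence holds it, and the hsp-16.2 and hsp-16.41 sequence does not.
hsp-16.2 and hsp-16.41, chrV:1804958-1805177: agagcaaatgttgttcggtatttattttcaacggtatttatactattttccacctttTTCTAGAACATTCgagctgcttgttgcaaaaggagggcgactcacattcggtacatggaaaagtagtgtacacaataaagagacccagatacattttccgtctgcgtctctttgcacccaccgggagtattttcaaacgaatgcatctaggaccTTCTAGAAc
hsp-4, chrII:7352646-7352895: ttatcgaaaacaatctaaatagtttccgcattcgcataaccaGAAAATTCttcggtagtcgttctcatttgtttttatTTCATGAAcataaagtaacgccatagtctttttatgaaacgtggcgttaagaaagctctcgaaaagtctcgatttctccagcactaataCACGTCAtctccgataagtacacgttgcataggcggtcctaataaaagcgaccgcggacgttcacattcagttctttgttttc

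Heat shock elements were more frequent in the stress-induced class and CGCG in the constitutive class. The hsp-16 genes, which lie in shared promoters, weigh on both shares. Both strands of the window, from 500 bases upstream to 100 downstream of the most upstream start of each gene, were searched. For hsp-90 this is not the start next to its peak. The 3-unit heat shock element, which contains both pair forms and whose 2 orders are reverse complements, was in 3.84% of all protein-coding promoters and in 14 of the 59 members, or 23.7%. All 7 heat-induced members had it, as did hsp-6, which made 66.7% of the stress-induced class. Among constitutive members it was in 6 of 39, namely hsp-90, hsp-110, sti-1, dnj-12, dnj-13 and hsp-1. Each of these 6 had a pooled peak, 3 of them optimal, compared with 14 of the 33 constitutive members without the element. Peaks were not counted by this element over all protein-coding genes, so the split is no result about the members. None of the 7 heat-induced members with the element had a pooled peak. At 12.5% of all protein-coding genes this is no result about them, and the limit on the repeated windows given above applies.

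CGCG was in 45% of all promoters and in 82.3% of those of genes with an optimal peak. It was in 74.4% of constitutive members (29 of 39) and 33.3% of stress-induced members (4 of 12). Those 4 were hsp-70, hsp-4, hsp-6 and dnj-10. Of the 7 heat-induced genes 1 thus had it, and none of the hsp-16 genes did. Among the 36 members with CGCG, 22 had a pooled peak, and among the 23 without it 1 did, which was hsp-110. The 23 include the 6 hsp-16 genes, 4 of which have repeated windows. The same split was not counted over all protein-coding genes, so it is no result about the members. All 3 stress-induced members with a pooled peak were among the 4 with CGCG. The element core TGACGTG was in 13.6% of members and 5.41% of all promoters, and an E2F-like string, GGCGGGAA, was in none of the 59 members and in 2.10% of all promoters. The median G+C content of the windows was 35.1% for constitutive and 38.3% for stress-induced members, against 34.6% for all genes, and the part of base composition in the CGCG counts was not tested. A match of letters is no sign of a bound factor.

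**Figure D5:**
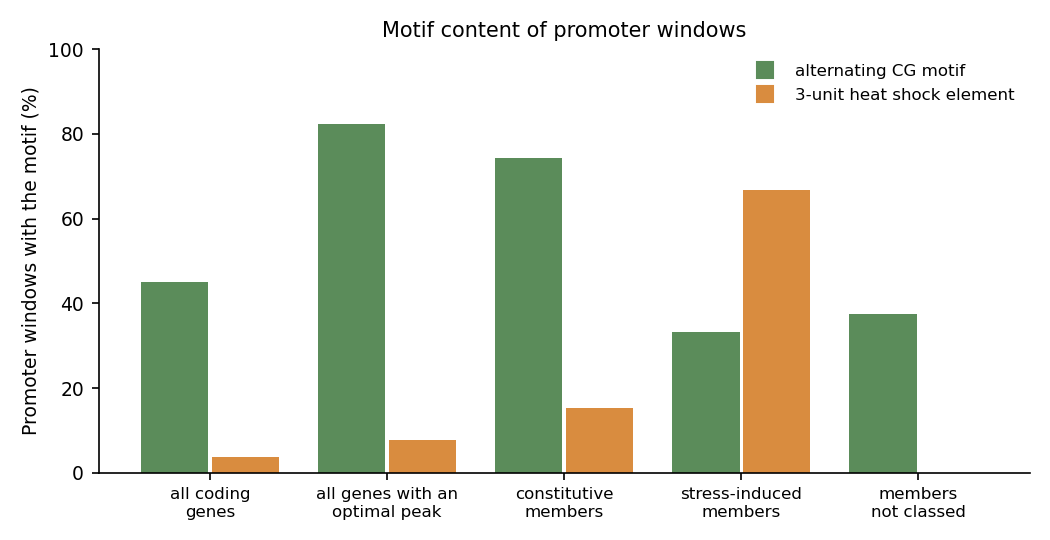
Percent of promoter windows that hold the alternating CG motif, CGCG (green), and the 3-unit heat shock element (orange), for all coding genes, all genes with an optimal peak and the 3 classes of members. The stress-induced members have the element in 66.7% and the CG motif in 33.3%, and the constitutive members have 15.4% and 74.4%.

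Other genes of the chaperone cycle, a list of 23 co-chaperones, HSF-1 regulators and folding factors outside the name rule, had optimal peaks at 5, or 21.7% (95% Wilson interval 9.66 to 41.9), against 1.98% of all protein-coding genes, and pooled peaks at 13. The 5 genes were ahsa-1, bag-1, crt-1, sip-1 and C34C12.8. AHSA-1 activates the ATPase of HSP90, and its peak scored 26.6, 45.8 and 27.5 in replicates 1, 2 and 3 and 106 in the pooled list at rank 36. That summit is closer to C01G10.7, at 114 bp, than to ahsa-1, at 248 bp. C34C12.8, a mitochondrial GrpE homolog and so a nucleotide exchange factor, scored 22.7, 28.9 and 26.8. BAG-1, another exchange factor for HSP70, scored 14.8, 33.2 and 22.5. These 3 genes were top-ranked in every replicate.

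Calreticulin, encoded by crt-1, is a lectin chaperone of the endoplasmic reticulum, and its peak scored 7.65, 15.8 and 18.8, with replicate 1 lowest. The small heat shock protein gene sip-1 scored 16, 9.65 and 13.8, and its summit is 5 bp from the start of sly-1 and 252 bp from that of sip-1. The gene of the HSF-1 regulator ddl-1 had a pooled peak of 11.8, near the lowest pooled score of 11.4, while hsb-1 and ddl-2 had none. The heat-inducible HSP70 pair F44E5.4 and F44E5.5 shared 1 pooled peak of 12.7. The HSP90 co-chaperone genes daf-41 and cdc-37 had none, nor did the HSP70 co-chaperone genes hip-1 and sgt-1. With a pooled peak at 12.5% of all protein-coding genes, such absences are no result about these genes. Others of the list had a pooled peak below the optimal threshold, among them ubql-1 with 28.2 at rank 394, unc-45 with 15.9, and pph-5 and unc-23 with 12.2.

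By chromosome, the optimal peaks of members fell on V (3 of 14 members), X (2 of 5), II (1 of 8) and III (1 of 10), and none on IV (0 of 10) or I (0 of 12). Among all protein-coding genes the share was 1.16% on V, 0.513% on X, 1.91% on II, 3.52% on III, 2.13% on IV and 3.09% on chromosome I. Counts of members per chromosome are small, and the interval for 0 of 12 runs up to 24.2%. The X members with a peak were hsp-3 and dnj-14, at ranks of 17221 in replicate 1 and 24815 in replicate 2, respectively, the lowest of the 3 lists for each.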

How the data were processed

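LIN-15B peak lists from 3 biological replicates were used. Per the deposited file descriptions, the authors called peaks on each replicate and on their pool against a control alignment on ce11, and thresholded them by irreproducible discovery rate (IDR) to give the optimal list. The cutoff of that step is not given in the sources used, nor are the aligner, the caller or their versions. The score is the authors' signal value, of unstated scale, used only to rank peaks within a list; the deposited −log10 q-value was not used. No counts are given, so depth is unknown. Lists on ce10 were not used. The labels do not say how replicate cultures were kept apart.

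Windows came from Ensembl release 115 on WBcel235. Ensembl gives hsp-16.11 and hsp-16.49 the names of their copies, so these 2 were renamed from RefSeq coordinates. Of 24 co-chaperone names, 23 were in the annotation. Members, classes, lists and motifs were chosen with earlier results of these data known, so no test was made. Named genes are members with an optimal peak, stress-induced members, hsf-1, up to 10 further members by pooled score, genes sharing their peaks, and co-chaperones with an optimal peak; a few others (Y22D7AL.10, hsp-75 and co-chaperones without an optimal peak) were added after their values were seen. Intervals are 95% Wilson intervals over genes, cover counting error only, and genes are not replicates. Assignment, distances and motif search were tested on simulated data. Scripts ran on Python 3.11.15, with matplotlib 3.10.9, numpy 2.4.6 and scipy 1.17.1. Alternatives changed the window, the rule for shared summits, the threshold, the classes and the replicates.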

Additional observations from a re-analysis of the deposited data

How the results depend on the processing

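The count of 7 members with an optimal peak, all constitutive, became 5 with a narrow window (8.47%, against 1.55% of all genes), 8 with a wide one (13.6% against 2.44%) and 7 with any overlap (11.9% against 2.16%). It fell to 3 with the nearest start alone (5.08% against 1.41%) and to 4 with the upper 50 percent by score (6.78% against 1.10%), and the same 3 and 4 held for the constitutive class. Keeping optimal peaks found among the top-ranked peaks of both other replicates gave 3 to 4 when each replicate was left out in turn, for members (5.08% to 6.78%, against 0.981% to 1.02% of all genes) and for constitutive members; hsp-90, hsp-110 and sti-1 were kept each time, and hsp-3 only without replicate 1. Pooled peaks ranked up to 500, chosen after seeing the data, gave 10 (16.9% against 2.48%), adding dnj-28, dnj-29 and pfd-4. Stress-induced members stayed at 0 except for 1, hsp-60, with the wide window. The 23 members with a pooled peak became 14 with the narrow window (23.7% against 8.04%) and 15 with the nearest start (25.4% against 10.6%). Co-chaperones fell from 5 to 3 with the nearest start and to 3 without replicate 3, in a range of 3 to 4 over the replicates. The mean of 6.33 members per replicate with a top-ranked peak was 9.33 with 1000 peaks and 5.50 to 7.50 with 1 replicate left out. Depth is unknown and its effect was not tested.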

Other observations

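The members not classed are hsf-1 and small heat shock protein genes outside the hsp-16 group: hsp-12.1, hsp-12.2, hsp-12.3, hsp-12.6, hsp-17, hsp-25 and hsp-43. None of these 8 had a pooled peak in the window, which at 12.5% of all protein-coding genes is no result about them. In the replicate lists hsp-25 had a peak in replicates 1 and 2, of score 4.70 and 3.92, and hsp-12.1 and hsp-43 in replicate 3 alone, of 3.80 and 3.33. The small heat shock protein gene sip-1 had an optimal peak, with its summit 252 bp from the sip-1 start and 5 bp from that of sly-1.

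J-domain genes varied widely. Of the 29, 12 had a pooled peak, or 41.4% against 12.5% of all protein-coding genes. The share with any peak in a replicate list was 48.3%, 62.1% and 69.0% in replicates 1, 2 and 3, against 26.2%, 26.9% and 26.7% of all genes. The share with a top-ranked peak was 13.8%, 10.3% and 0% in the same lists, against 1.69%, 1.73% and 1.69%, so replicate 3 was highest by one measure and lowest by the other. The cause was not tested.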
